A study of Rattus norvegicus with 6 samples.

Results

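The antioxidant defence genes described here were taken by gene name from a table of 30498 genes in rat mesenchymal stem cells (MSC), the plastic-adherent stromal cells of bone marrow. Of 10 genes listed, 9 had a row: the NRF2 targets Hmox1, Nqo1, Gclc, Gclm and Txnrd1, the superoxide dismutases Sod1, Sod2 and Sod3, and catalase (Cat). All 9 had enough counts to be tested. Expression of the 10th, Srxn1 (sulfiredoxin), was not analysed here. The series compared rcMSC, 3 libraries from cranial bone marrow, with rbMSC, 3 libraries from the marrow of femurs (read from the label's "ferms") and tibias. Both groups were labelled wild type, and the labels used here gave no strain, age, sex or culture conditions. The series title concerns transplantation of the cranial cells after spinal cord injury, and the comparison asks how the expression profiles of cells from both sites differ.

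The transcription factor NRF2 (gene Nfe2l2) is held in the cytoplasm and marked for degradation by KEAP1. Oxidants and electrophiles modify KEAP1, and NRF2 then enters the nucleus, pairs with a small MAF protein and binds antioxidant response elements of genes for glutathione synthesis, thioredoxin reduction and quinone and haem breakdown, sites at which BACH1 can repress. Superoxide dismutases convert superoxide to hydrogen peroxide in the cytosol (Sod1), the mitochondrial matrix (Sod2) and the extracellular space (Sod3), and catalase, glutathione peroxidases and peroxiredoxins remove the peroxide.

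Total counts were 26179769 to 26928079 in rcMSC and 21340290 to 25170868 in rbMSC. Levels are given as CPM, counts scaled by TMM to a common effective library size. All 7 MSC surface markers were present in the 6 libraries. Of these, Vcam1 (log2 fold change -1.81), Thy1 (-1.12), Nt5e (-0.99), Pdgfrb (-0.92) and Itgb1 (-0.43) were lower in rcMSC, and Eng (0.88) and Cd44 (0.58) higher. The 8 neutrophil and erythroid markers with a row summed to 2 to 5 counts in rcMSC and 1 to 7 counts in rbMSC, and 4 of them were at 0 throughout. Macrophage markers were present in both groups, and 11 of 16 tested were lower in rcMSC. By the edgeR test described below, 22.6% of all genes tested were higher and 23.2% lower in rcMSC. The rcMSC replicate 3 library stood apart from the other 2 of its group: among 12192 genes averaging a log2 CPM of 1 or more, 154 were at 2 times or more the mean of those libraries and 96 at 0.5 times or less. For the other 5 libraries, counted the same way, these numbers were 0 to 11 and 11 to 66.

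In rcMSC, transcripts of both subunits of glutamate-cysteine ligase (Gclc and Gclm), of thioredoxin reductase 1 (Txnrd1) and of cytosolic superoxide dismutase (Sod1) were higher, while those of haem oxygenase 1 (Hmox1), mitochondrial and extracellular superoxide dismutase (Sod2 and Sod3) and catalase were lower. With edgeR's quasi-likelihood test over 14836 genes, 4 of the 9 genes were thus higher and 4 lower at an adjusted p under 0.05, against 22.6% and 23.2% of all genes tested, and 45.8% in either direction. Nqo1 was not called. The median log2 fold change, rcMSC over rbMSC, was 0.34 over the 9 genes and 0.02 over all genes. In all 9 the 3 libraries of one group lay above the 3 of the other, which held for 57.1% of all genes. The plot of CPM by library shows these values, with Nqo1 the only one of the 9 in which a single library of a group lay at several times the level of its companions.

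**Figure D1:**
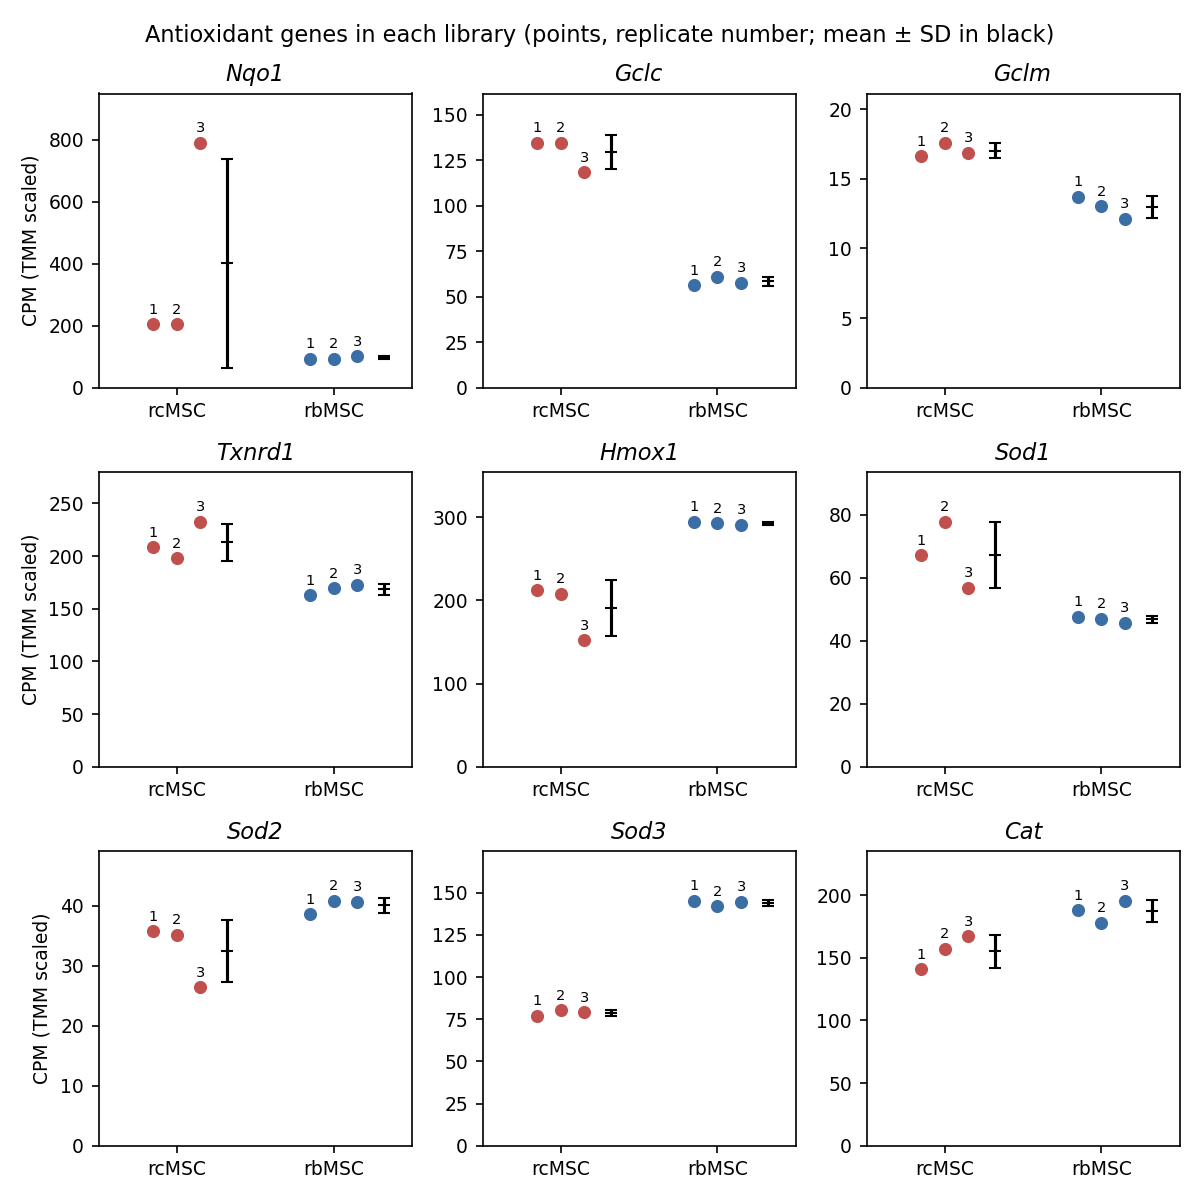
TMM-scaled CPM (linear axis from 0) of the 9 antioxidant genes, with 1 point a library labelled by replicate number and the mean ± SD of 3 libraries in black. The groups do not overlap in any of the 9 panels, and Nqo1 in rcMSC replicate 3 stands at 790.4 CPM against 205 CPM in rcMSC replicates 1 and 2.

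Gclc encodes the catalytic subunit of glutamate-cysteine ligase, which carries out the rate-limiting step of glutathione synthesis. The gene (ENSRNOG00000006302) lies on chromosome 8 from 78630127 to 78668544 on the plus strand of mRatBN7.2. Its level was 135, 135 and 119 CPM in rcMSC replicates 1 to 3, against 56.5, 61.0 and 57.7 CPM in rbMSC replicates 1 to 3. Every rcMSC library was thus far above every rbMSC library, and replicate 3 was the lowest of the rcMSC libraries. Gclc averaged 129 ± 9.31 CPM in rcMSC and 58.4 ± 2.32 CPM in rbMSC (n = 3 per group, SD). This was the largest change among the 8 genes called, a log2 fold change of 1.15 ± 0.07 (SE; adjusted p = 5.41e-07 by edgeR), or 2.21-fold.

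Gclm encodes the modifier subunit, which lowers the enzyme's sensitivity to feedback inhibition by glutathione. The gene (ENSRNOG00000013409) lies on chromosome 2 from 210347482 to 210367535 on the plus strand. Its level was 16.6, 17.6 and 16.9 CPM in rcMSC replicates 1 to 3, against 13.7, 13.0 and 12.1 CPM in rbMSC replicates 1 to 3. The groups were separate by less than in Gclc, and rcMSC replicate 3 lay between its companions. By edgeR the log2 fold change was 0.40 ± 0.09 (SE), with an adjusted p = 0.0055, or 1.32-fold. The subunits also differed in level. Per length (RPKM, the TMM-scaled CPM divided by merged exon length in kilobases), the ratio of the Gclc level to the Gclm level was 3.71 ± 0.27 in rcMSC and 2.21 ± 0.17 in rbMSC (n = 3 per group, SD). The ratio was 3.43 or more in each rcMSC library and 2.32 or less in each rbMSC library, which is given as a description with no test.

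Txnrd1 encodes cytosolic thioredoxin reductase, a selenoenzyme that returns electrons from NADPH to thioredoxin. The gene (ENSRNOG00000009088, chromosome 7, 20830045 to 20907863, minus strand) had 208, 198 and 233 CPM in rcMSC replicates 1 to 3, against 163, 169.5 and 173 CPM in rbMSC replicates 1 to 3. Here rcMSC replicate 3 was the highest library. In edgeR's test its log2 fold change was 0.34 ± 0.07 (SE), with an adjusted p = 0.00244, or 1.27-fold.

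Nqo1 encodes NAD(P)H quinone oxidoreductase 1, which reduces quinones in a single step that passes over the reactive semiquinone. The gene (ENSRNOG00000012772) lies on chromosome 19 from 35295573 to 35310557 on the minus strand. It had 5638, 5580 and 19768 raw counts in rcMSC replicates 1 to 3, against 1988, 2170 and 2560 in rbMSC replicates 1 to 3. These counts correspond to 205, 205 and 790.4 CPM in rcMSC and 93.0, 93.9 and 101 CPM in rbMSC. Replicates 1 and 2 of rcMSC were near each other and above all rbMSC libraries, and replicate 3 was far above both. Over all 6 libraries the log2 fold change was 2.06 (95% interval 0.27 to 3.85, not adjusted for the number of genes tested). The call used the adjusted p, and Nqo1 did not pass (edgeR adjusted p = 0.0663). Without rcMSC replicate 3 its log2 fold change was 1.09 (edgeR adjusted p = 4.22e-29), in a range of adjusted p from 4.22e-29 to 0.122 over 15 alternatives. DESeq2 and limma voom with sample weights also called it, at 2.06 and 1.24 (adjusted p = 0.0121 and 2.4e-05), as did edgeR without robust dispersions (adjusted p = 0.00552).

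Nqo1 in rcMSC replicate 3 stood at 3.85 times the mean of the other 2 rcMSC libraries, the 24th highest such ratio among the 12192 genes. The nearest tested gene on the lower-coordinate side, Nfat5, 8898 bases away, had a ratio of 0.99, and the nearest on the other side, Nob1, 12112 bases away, a ratio of 1.00. No other gene of the table overlapped the span of Nqo1 or of the other 8 genes on either strand.

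Hmox1 encodes inducible haem oxygenase, which splits haem into biliverdin, carbon monoxide and iron. The gene (ENSRNOG00000014117, chromosome 19, 13467244 to 13474079, plus strand) had 212, 208 and 152 CPM in rcMSC replicates 1 to 3, against 295, 293 and 291 CPM in rbMSC replicates 1 to 3. The rbMSC libraries were close together, all rcMSC libraries lay below them, and rcMSC replicate 3 was the lowest. edgeR put the log2 fold change at -0.62 ± 0.11 (SE), with an adjusted p = 0.00205, or 1.53-fold lower in rcMSC, and -0.48 without rcMSC replicate 3. Hmox1 was therefore lower in rcMSC while Gclc, Gclm and Txnrd1, also NRF2 targets, were higher. The ratio of its RPKM level to that of Hmox2, the constitutive haem oxygenase, was 16.7 ± 1.72 in rcMSC and 28.3 ± 1.89 in rbMSC (n = 3 per group, SD).

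Macrophages, which clear haem from red cells, are known for high Hmox1. The summed level of the 17 macrophage markers with a row was 731 to 753 CPM in rcMSC and 1217 to 1222 CPM in rbMSC. Among them Ptprc (CD45) was lower in rcMSC by a log2 fold change of -1.57, Csf1r by -1.53, Cd74 by -2.13 and Clec7a by -1.33. Those 4 had the largest changes of the list. Of the 5 markers that did not pass, Cd14 (0.19) and Fcer1g (0.08) had positive log2 fold changes, and Fcer1g passed as higher without rcMSC replicate 3 (0.19, edgeR adjusted p = 0.0108). All 11 markers called lower kept their call with each library left out in turn, as did 2487 of 3445 lower and 2211 of 3351 higher genes over the whole table, counts to set beside those of the lists that follow. The shares of all genes tested that were called higher (22.6%) and lower (23.2%) are likewise to be set beside the list counts. None of the 17 macrophage markers with a row was at 0 in all libraries. The part of macrophage RNA in the Hmox1 result was not tested, and in such bulk samples fewer cells of a type and less RNA per cell cannot be told apart.

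The plot of fold changes sets the 9 genes beside each other, with and without rcMSC replicate 3.

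**Figure D2:**
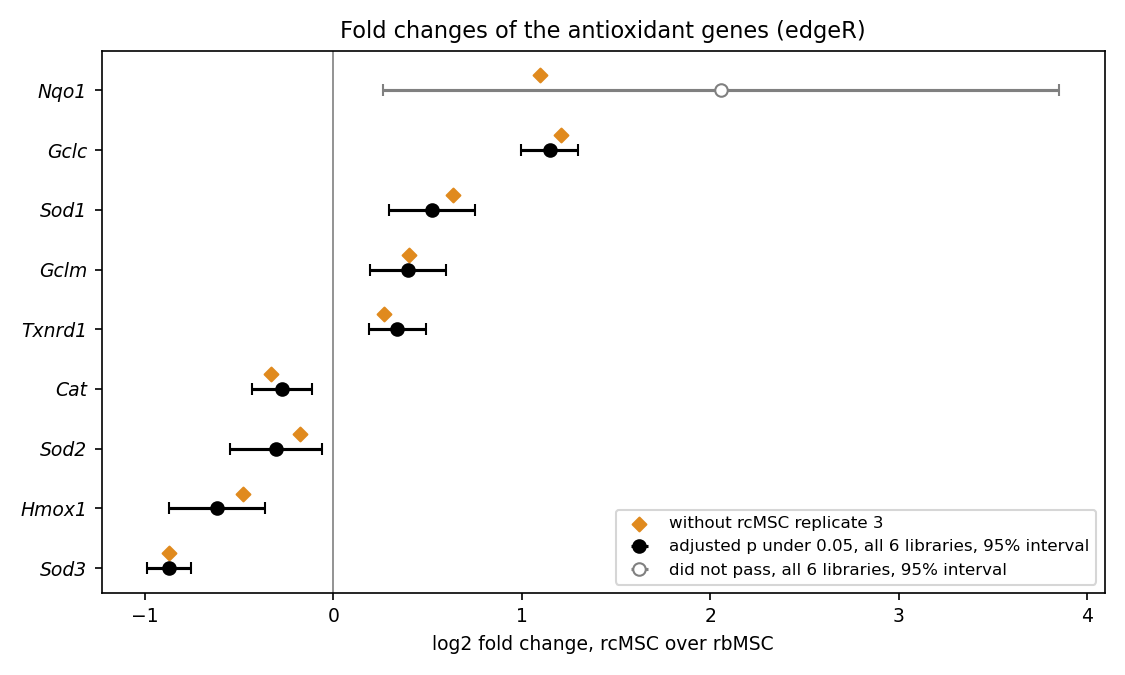
Log2 fold change of rcMSC over rbMSC (x axis) for the 9 antioxidant genes (rows), with diamonds for edgeR estimates without rcMSC replicate 3. Circles are edgeR estimates over all 6 libraries, filled where the adjusted p was under 0.05. Their 95% intervals are not adjusted for the number of genes tested. No gene changes sign, and Nqo1, at 2.06 with all libraries and 1.09 without that library, moves most.

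The superoxide dismutases went in different directions. Sod1, the copper and zinc enzyme of the cytosol (ENSRNOG00000002115, chromosome 11, 29456558 to 29462249, plus strand), had 67.2, 77.8 and 56.8 CPM in rcMSC replicates 1 to 3, against 47.6, 46.9 and 45.7 CPM in rbMSC replicates 1 to 3. The rcMSC libraries were spread but all above the tight rbMSC libraries. This gave a log2 fold change by edgeR of 0.53 ± 0.10 (SE), with an adjusted p = 0.00217, or 1.44-fold.

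Sod3, the secreted enzyme that binds heparan sulfate on matrix and cell surfaces (ENSRNOG00000003869, chromosome 14, 58609958 to 58615990, minus strand), had 77.0, 80.3 and 79.2 CPM in rcMSC replicates 1 to 3, against 145, 142 and 145 CPM in rbMSC replicates 1 to 3. Neither group spread by more than a few CPM, and rcMSC replicate 3 did not stand out. By edgeR the log2 fold change was -0.87 ± 0.05 (SE), with an adjusted p = 5.89e-07, or 1.83-fold lower in rcMSC, the largest decrease among the 9.

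Sod2, the manganese enzyme of mitochondria (ENSRNOG00000019048, chromosome 1, 47636528 to 47645189, minus strand), had 35.7, 35.1 and 26.4 CPM in rcMSC replicates 1 to 3, against 38.6, 40.8 and 40.7 CPM in rbMSC replicates 1 to 3. Replicates 1 and 2 of rcMSC lay just below the rbMSC libraries and replicate 3 well below. The log2 fold change of -0.30 (SE 0.11) passed narrowly, with an edgeR adjusted p = 0.0436. The adjusted p was 0.0834, 0.126 and 0.123 without rbMSC replicate 1, 2 and 3, and the value was -0.18 (edgeR adjusted p = 0.0184) without rcMSC replicate 3, all within a range of 0.0184 to 0.126 over 15 alternatives.

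Per length, the 3 dismutases together had 84.3 ± 7.19 RPKM in rcMSC and 107 ± 0.70 RPKM in rbMSC (n = 3 per group, SD). Sod3 made up 46.5 ± 3.83% of this sum in rcMSC and 66.5 ± 0.44% in rbMSC, and Sod1 43.6 ± 3.14% in rcMSC and 23.9 ± 0.45% in rbMSC. The share of Sod2 was 9.88 ± 1.05% in rcMSC and 9.62 ± 0.37% in rbMSC, ranges that overlapped. The extracellular enzyme had the highest mean share in both groups, although in rcMSC replicate 2 alone Sod1 (46.7%) was above Sod3 (43.4%).

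**Figure D3:**
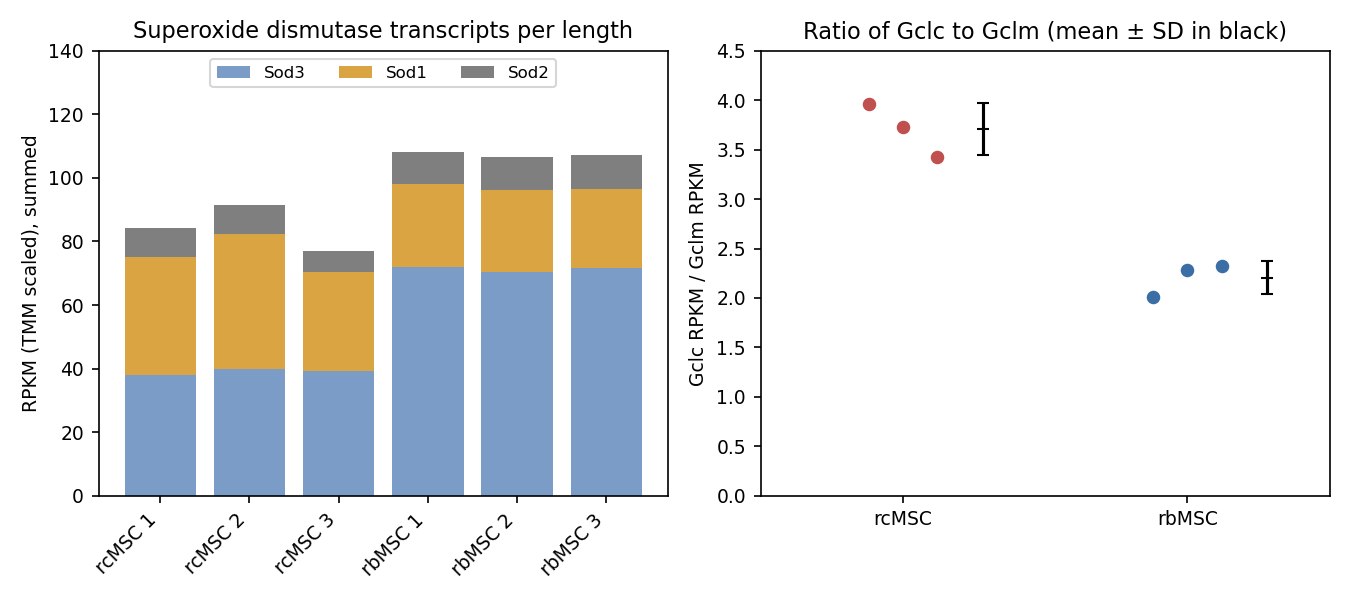
Left, summed RPKM (TMM-scaled CPM per kilobase) of Sod3, Sod1 and Sod2 in each library. Right, the Gclc to Gclm ratio of RPKM levels by library, with the mean ± SD of 3 libraries in black. The dismutase sum is 77.1 to 91.5 RPKM in rcMSC and 107 to 108 RPKM in rbMSC, and the ratio is 3.43 to 3.96 in rcMSC and 2.01 to 2.32 in rbMSC.

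Cat encodes catalase, the peroxisomal enzyme that splits hydrogen peroxide. The gene (ENSRNOG00000008364, chromosome 3, 89842399 to 89874478, minus strand) had 141, 157 and 167 CPM in rcMSC replicates 1 to 3, against 188, 178 and 196 CPM in rbMSC replicates 1 to 3. The groups did not overlap, with rcMSC replicate 3 nearest to rbMSC. By edgeR the log2 fold change was -0.27 ± 0.07 (SE), with an adjusted p = 0.011, or 1.21-fold lower in rcMSC. Without rbMSC replicate 3 it was -0.24 and did not pass (edgeR adjusted p = 0.062), in a range of 1.53e-08 to 0.062 over 15 alternatives.

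Levels can be compared between genes only per length. In rcMSC the RPKM levels ran from Nqo1 (236 ± 199) and Hmox1 (123 ± 21.7) through Cat (65.1 ± 5.65), Txnrd1 (60.5 ± 5.06), Gclc (42.5 ± 3.06), Sod3 (39.0 ± 0.83) and Sod1 (36.9 ± 5.78) to Gclm (11.5 ± 0.35) and Sod2 (8.35 ± 1.34). In rbMSC they ran from Hmox1 (189.5 ± 1.22) through Cat (78.7 ± 3.71), Sod3 (71.3 ± 0.83), Nqo1 (56.7 ± 2.72), Txnrd1 (47.8 ± 1.40), Sod1 (25.7 ± 0.55) and Gclc (19.2 ± 0.76) to Sod2 (10.3 ± 0.33) and Gclm (8.71 ± 0.54), all SD with n = 3. No neighbours in the rbMSC order overlapped in range, while in rcMSC Nqo1 overlapped Hmox1, Cat overlapped Txnrd1, and Sod3 overlapped both Gclc and Sod1. By mean RPKM over the 6 libraries, the 9 genes ranked from the 65.4th percentile (Sod2) to the 98.5th percentile (Hmox1) of all genes tested.

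Among the 9 genes, the deviation of rcMSC replicate 3 was not in 1 direction. Relative to the mean of the other 2 rcMSC libraries, its level was 3.85 times for Nqo1, 1.15 for Txnrd1, 1.12 for Cat, 1.01 for Sod3, 0.99 for Gclm and 0.88 for Gclc. It was 0.78 for Sod1, 0.75 for Sod2 and 0.72 for Hmox1. In this library 95% of the 12192 genes lay between 0.62 and 1.66 times that mean, so that Nqo1 alone of the 9 fell outside. In rbMSC all 9 genes lay between 0.91 and 1.09 times the mean of the other 2 libraries.

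**Figure D4:**
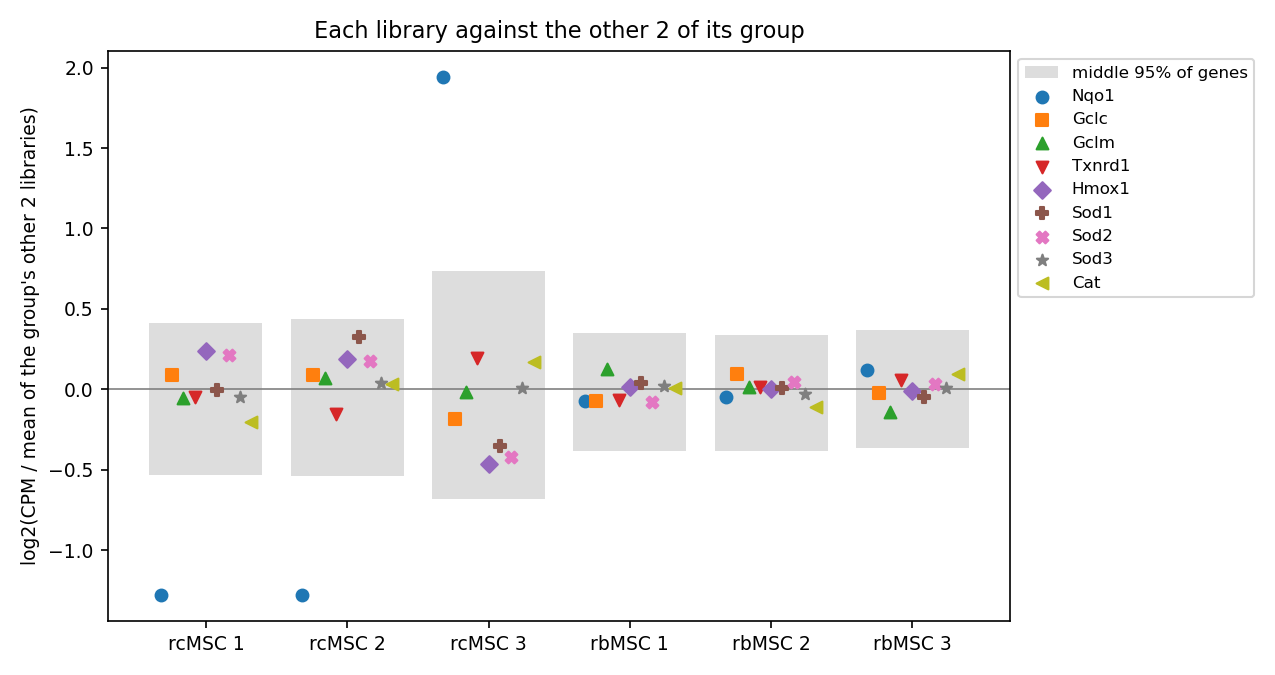
Log2 ratio of each library's CPM to the mean of the other 2 libraries of its group (y axis) for the 9 antioxidant genes, by library (x axis). Grey bars hold the middle 95% of 12192 genes. Nqo1 stands at 3.85 times the mean in rcMSC replicate 3, and in consequence at 0.41 times in rcMSC replicates 1 and 2, while the 3 rbMSC libraries show no such spread.

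Antioxidant response elements share the core TGACNNNGC, and the related AP-1 site is TGAGTCA. Both were searched on both strands in RefSeq windows of the GRCr8 build from 250 bases before to 50 bases after each gene's start, which exist for 8 of the 10 listed genes, with 2 starts for Txnrd1. The core was found in 3 of these 9 windows (Gclm, 1 of 2 of Txnrd1, and Sod2), against 12.1% of 33469 windows of all genes. AP-1 letters were found in 1 of the 9, that of Srxn1, against 4.63% of all, and no match of either motif overlapped one of the other. Windows are shown for both ligase subunits, which changed by different amounts, and for the other genes with a match of the core, with the matched letters in capitals.
Gclc (chr8:87510226-87510525, plus strand): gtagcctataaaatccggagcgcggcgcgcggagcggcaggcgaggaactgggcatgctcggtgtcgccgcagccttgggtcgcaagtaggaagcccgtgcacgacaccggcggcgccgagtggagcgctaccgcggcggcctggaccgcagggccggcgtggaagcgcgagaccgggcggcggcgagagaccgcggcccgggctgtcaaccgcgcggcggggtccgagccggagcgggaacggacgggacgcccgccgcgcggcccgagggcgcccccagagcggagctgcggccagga
Gclm (chr2:213031885-213032184, plus strand): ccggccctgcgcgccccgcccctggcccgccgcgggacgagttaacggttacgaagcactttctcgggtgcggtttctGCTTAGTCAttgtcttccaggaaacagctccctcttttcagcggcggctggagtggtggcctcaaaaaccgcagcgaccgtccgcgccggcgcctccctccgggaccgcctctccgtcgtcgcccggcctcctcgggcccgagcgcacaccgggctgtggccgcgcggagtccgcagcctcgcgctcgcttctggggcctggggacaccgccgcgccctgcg
Txnrd1 (chr7:22755855-22756154, minus strand): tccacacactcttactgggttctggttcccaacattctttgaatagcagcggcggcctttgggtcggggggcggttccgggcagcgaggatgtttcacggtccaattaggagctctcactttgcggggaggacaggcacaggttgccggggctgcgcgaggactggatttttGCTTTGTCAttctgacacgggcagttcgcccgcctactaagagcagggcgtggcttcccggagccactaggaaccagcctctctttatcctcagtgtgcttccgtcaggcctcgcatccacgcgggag
Sod2 (chr1:50050119-50050418, minus strand): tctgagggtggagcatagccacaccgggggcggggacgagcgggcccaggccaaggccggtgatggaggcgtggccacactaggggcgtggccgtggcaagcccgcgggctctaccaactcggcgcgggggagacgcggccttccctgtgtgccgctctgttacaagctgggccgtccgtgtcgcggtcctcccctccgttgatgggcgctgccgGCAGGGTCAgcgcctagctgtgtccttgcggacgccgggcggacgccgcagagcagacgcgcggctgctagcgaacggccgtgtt
All 3 matches read from the opposite strand, as TGACTAAGC in Gclm, TGACAAAGC in Txnrd1 and TGACCCTGC in Sod2. Along the windows as printed, the capitals begin 172 bases before the start of Gclm, 78 before that of Txnrd1 and 35 before that of Sod2. The genes with a match thus include Gclm and Txnrd1, higher in rcMSC, and Sod2, lower in rcMSC, while Gclc, with the largest change of the 8 genes called, had no match in its window. Such a match is a description of letters and not evidence of binding. Sequence outside these windows was not searched, so a window without a match does not show that a gene lacks the element.

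Nfe2l2, the gene of NRF2 itself, had 254, 257 and 214 CPM in rcMSC replicates 1 to 3, against 137, 129.6 and 144 CPM in rbMSC replicates 1 to 3. Its log2 fold change was 0.82 ± 0.08 (SE; adjusted p = 1.74e-05 by edgeR), and the call held with each library left out in turn. Keap1, which holds NRF2 back, averaged 20.5 CPM in rcMSC and 19.0 CPM in rbMSC, with all rcMSC libraries above those of rbMSC and a log2 fold change of 0.11 that did not pass (edgeR adjusted p = 0.319). Bach1, a repressor at the same elements, had a log2 fold change of 0.17 (adjusted p = 0.0819 by edgeR) and passed without rcMSC replicate 3 at 0.21 (edgeR adjusted p = 0.000889, in a range of 0.000889 to 0.255 over the alternatives). Among 13 regulators 2 were higher and 2 lower in rcMSC, with a median log2 fold change of 0.11, and of these Nfe2l2 and Bach2 (log2 fold change -1.45) held with each library left out. The count of higher regulators was 6 without rcMSC replicate 3 and 1 without any single rbMSC library. The count of lower ones was 1 without rcMSC replicate 1 or rbMSC replicate 1 or 2.

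Cysteine is the limiting amino acid of glutathione. Slc7a11, the cystine importer of system xc-, which stands in the lists of both glutathione genes and NRF2 targets and is a target of both NRF2 and ATF4, had 56.8, 58.7 and 46.3 CPM in rcMSC replicates 1 to 3, against 16.1, 18.0 and 19.2 CPM in rbMSC replicates 1 to 3. This change was larger than that of any of the 9 genes that passed, a log2 fold change of 1.60 ± 0.11 (SE; adjusted p = 1.23e-06 by edgeR). Chac1, which degrades glutathione and is known as an ATF4 target, was also higher, by a log2 fold change of 0.81. Ggt1, which cleaves extracellular glutathione, and Oplah, which recovers glutamate from oxoproline, were lower, by log2 fold changes of -1.91 and -0.73. Of 17 genes of glutathione synthesis and use, 7 were higher and 3 lower in rcMSC, with a median log2 fold change of 0.13, and 4 and 2 of these held with each library left out. The count of higher genes was 4 without rbMSC replicate 1.

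Among 17 other NRF2 targets, 6 were higher and 3 lower in rcMSC, with a median of 0.04, and 5 and 2 held with each library left out. Besides Slc7a11, the glutathione transferase Gstm1 (log2 fold change 0.90) and the epoxide hydrolase Ephx1 (0.69) were higher, and Abcc1, an exporter of glutathione conjugates, was lower (-0.74). Gstm1 belongs to a family with close copies, between which the counting could have split reads. The share of higher calls in this list and the share of higher calls over all genes (22.6%) are given as they stand, without a test between them.

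Of 5 glutathione peroxidases tested, 3 were higher in rcMSC and the other 2 did not pass. Gpx8 and Gpx7, of the endoplasmic reticulum, each had a log2 fold change of 0.59, and both calls held with each library left out. Likewise 3 of 5 peroxiredoxins were higher in rcMSC and the other 2 did not pass, with mitochondrial Prdx3 at 0.71 ± 0.08 (SE; adjusted p = 6.86e-05 by edgeR). Of these 3 calls, 2 held with each library left out. Over all genes tested, 22.6% were called higher. Prdx3 had 55.2, 51.0 and 45.3 CPM in rcMSC replicates 1 to 3, against 30.5, 31.5 and 30.8 CPM in rbMSC replicates 1 to 3. Median log2 fold changes were 0.33 for the glutathione peroxidases and 0.32 for the peroxiredoxins, against 0.02 for all genes. Enzymes that remove peroxide therefore did not share a direction, since catalase was lower. The ratio of the Cat to the Gpx1 level in RPKM was 1.21 ± 0.18 in rcMSC and 1.77 ± 0.14 in rbMSC (n = 3 per group, SD).

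Of 15 thioredoxins, glutaredoxins and related reductases, 5 were higher and 2 lower in rcMSC, with a median of 0.02, and 3 and 1 held with each library left out. Sesn2 (sestrin 2), a stress-induced inhibitor of mTORC1 signalling, had 126, 138 and 119 CPM in rcMSC replicates 1 to 3, against 71.6, 71.2 and 71.5 CPM in rbMSC replicates 1 to 3, a log2 fold change of 0.84 ± 0.06 (SE; adjusted p = 3.46e-06 by edgeR). Glrx5, a glutaredoxin of iron-sulfur cluster assembly in mitochondria, was higher by 0.60. Txnrd2, the mitochondrial thioredoxin reductase, was lower by a log2 fold change of -0.64 (adjusted p = 0.0192 by edgeR), opposite in sign to Txnrd1. Its adjusted p was 0.0674, 0.0516, 0.0767 and 0.0751 without rcMSC replicate 1, rcMSC replicate 2, rbMSC replicate 1 and rbMSC replicate 3, in a range of 3.56e-05 to 0.0767 over the alternatives. The other lower gene, the methionine sulfoxide reductase Msrb1 (-0.41), held with each library left out. The count of higher genes was 3 without rcMSC replicate 1 or 2 or rbMSC replicate 1 or 2. The count of lower genes was 4 without rcMSC replicate 3 and 1 without rcMSC replicate 1 or 2 or rbMSC replicate 1 or 3. Of 7 genes that supply metal or support to dismutases, 3 were higher and the other 4 did not pass. Of these, the metallothionein Mt2A (1.11), which also has close copies, held with each library left out, and the count was 1 without rcMSC replicate 2 or rbMSC replicate 1 or 2.

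Of 14 oxidant-producing genes listed, 9 could be tested, and the rest had too few counts or no row. All 9 passed, 5 higher and 4 lower in rcMSC, while 45.8% of all genes tested passed in either direction. Duox1, a dual oxidase that makes hydrogen peroxide, had 41.2, 37.3 and 59.0 CPM in rcMSC replicates 1 to 3, against 5.57, 3.07 and 4.52 CPM in rbMSC replicates 1 to 3. Its log2 fold change was 3.39 ± 0.25 (SE; adjusted p = 2.61e-05 by edgeR). Duox2 was higher by 1.59 at a low level, and Nox4, an oxidase of mesenchymal cells that is active without cytosolic subunits, was higher by 1.02. Ncf4, a subunit of the oxidase of phagocytes, was lower by -1.13. Ncf4 moved in the direction of the macrophage markers given above, whose part in this value was not tested. With each library left out in turn, 4 of the 5 higher and 2 of the 4 lower calls held, and the count of lower genes was 2 without rcMSC replicate 2 or rbMSC replicate 1 or 3.

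**Figure D5:**
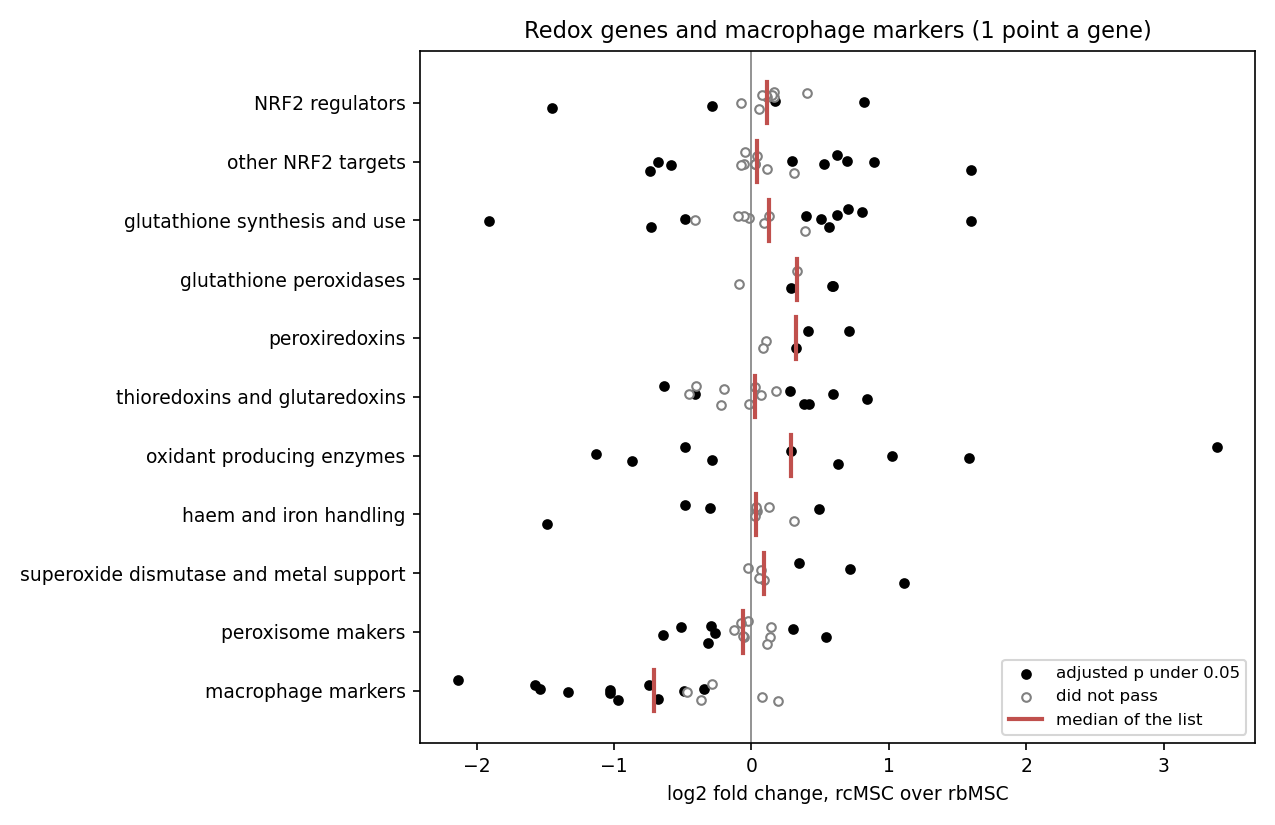
Log2 fold change of rcMSC over rbMSC (x axis) for the tested genes of the redox, haem and iron, peroxisome and macrophage lists (rows). Points are filled where the edgeR adjusted p was under 0.05, with each list's median as a red bar. The endothelial, MSC surface, and neutrophil and erythroid markers are not shown. Duox1 stands at 3.39 at the right end, the medians of the peroxiredoxins and glutathione peroxidases at 0.32 and 0.33, and that of the macrophage markers at -0.71.

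Gclc, the member called with the largest change, was also compared by its pattern over the 6 libraries with every other tested gene whose symbol stood on a single row. The measure was the mean absolute difference between log2 CPM values centred on each gene's mean. The nearest patterns were those of Ccdc80 (difference 0.02), Galnt13 (0.04) and Ppm1l (0.05). Their log2 fold changes were 1.15, 1.18 and 1.21, and in all 3, as in Gclc, rcMSC replicate 3 was the lowest of the rcMSC libraries. Both likenesses follow from choosing the genes by these same values and are a description only.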

How the data were processed

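RNA of 3 rcMSC and 3 rbMSC libraries was sequenced as paired reads of 150 nt. Per the labels' protocols, trimming by the authors used Trim Galore! 0.6.7 and Trimmomatic 0.39, alignment to mRatBN7.2 used STAR 2.7.9a, and featureCounts 2.0.1 made the gene counts. The submitters' processing notes name DESeq2 1.20.0. For strand setting, multi-mapping reads and annotation release, the sources used here give no statement. The deposited values are raw counts. The deposited Length column equals the merged exon length in all 30498 genes and was used for RPKM.

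Groups follow the titles. The labels do not say that libraries of a group came from separate animals or cultures, so p-values measure the spread among the 3 libraries of a group, possibly technical. Counts were tested with edgeR 4.0.16 (R 4.3.3; TMM, filterByExpr, robust quasi-likelihood F test, Benjamini-Hochberg over 14836 genes, threshold 0.05), and SE was taken from the log2 fold change and F (their size ratio |log2 FC|/√F). Alternatives were DESeq2 1.42.0, limma 3.58.1 voom, other scalings and filters, a replicate block and each library left out. The fit was tested on simulated data in which every gene had the same dispersion and at most 50 genes changed at each fold. It recovered 8% of 1.25-fold, 64% of 1.5-fold and 91.8% of 2-fold changes, with 5 false calls among 14698 genes. A far larger share of genes was called in the real data (45.8%), so recovery there may differ. A gene that did not pass may therefore still have a small change.

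The 10 genes, the context lists and the alternatives were chosen with earlier results of these data known. List genes with several rows (Mafk, Ftl1, Cbr1) were left out. Besides the listed genes and Nfe2l2, Keap1 and Bach1, the text names from each list at most 4 called genes, those that changed most and averaged a log2 CPM of 0 or more. The level ratios, Hmox2, Msrb1, Cd14, Fcer1g, the further MSC markers and the neighbours of Nqo1 were chosen after the values were seen. Some genes of the lists are not reported here by name.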

Additional observations from a re-analysis of the deposited data

How the results depend on the processing

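Over 15 alternatives no log2 fold change of the 9 genes changed sign, and Gclc (1.12 to 1.21), Gclm (0.35 to 0.44), Txnrd1 (0.27 to 0.39), Sod1 (0.41 to 0.63), Hmox1 (-0.70 to -0.48) and Sod3 (-0.88 to -0.85) passed in all of them. The number of the 9 genes called higher was 4 to 5 without 1 library, and the number called lower 2 to 4, with 2 without rbMSC replicate 3 since Sod2 and Cat were then not called. Sod2 was also not called with library totals as the only scaling (adjusted p = 0.0757). The calls over all genes were 5336 to 9070 without 1 library, highest without rcMSC replicate 3, and 6285 to 8754 under the other settings. Replicate numbers are shared by both groups' titles. Deviations of same-numbered libraries from their group means had a Pearson r of -0.03, 0.02 and -0.05 over 14836 genes. From 3 libraries a group, such values cannot show whether the libraries were paired, and pairing is not known. With the replicate number as a block, 6297 genes were called, 4 of the 9 higher and 4 lower, and Nqo1 was at 1.73 (adjusted p = 0.0787). Among the context lists, the block gave 1 higher NRF2 regulator and 2 lower peroxisome genes, limma voom 5 higher regulators, 4 lower thioredoxin and glutaredoxin genes and 2 higher haem and iron genes, and no filter on low counts 3 lower peroxisome genes. Both the block and no filter gave 2 higher endothelial markers. Cat and Sod2, which lost their call under some alternatives, had the smallest log2 fold changes of the 8 genes called.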

Other observations

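Of 10 genes of haem and iron handling tested, 1 was higher and 3 were lower in rcMSC, against 22.6% and 23.2% of all genes tested. All 4 calls held with each library left out in turn. Heph (hephaestin), a copper oxidase that assists iron export, had 15.8, 14.2 and 17.5 CPM in rcMSC replicates 1 to 3, against 46.6, 45.2 and 41.7 CPM in rbMSC replicates 1 to 3. Its log2 fold change was -1.49 ± 0.09 (SE; adjusted p = 6.55e-07 by edgeR), a larger change than that of Hmox1. Tfrc, the transferrin receptor, was lower by -0.49 and Alas1, the first enzyme of haem synthesis, by -0.30. Fech, the last enzyme of haem synthesis, was higher by 0.49. The median of the list was 0.03, and the count of higher genes was 3 without rcMSC replicate 3.

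Genes that build peroxisomes, the organelle of catalase, numbered 15 tested, of which 2 were higher and 5 lower in rcMSC. Their median log2 fold change was -0.06. Over all genes tested, 22.6% were called higher and 23.2% lower. Among the lower genes Pex11a (-0.64), which acts in peroxisome division, held its call with each library left out. Leaving out 1 library gave 1 to 2 higher genes, 1 without rcMSC replicate 2 or any rbMSC library, and 1 to 6 lower genes, 1 or 2 in every case but that without rcMSC replicate 3. DESeq2 called 1 higher and 2 lower. Of 5 endothelial markers tested, Tek was higher in rcMSC (0.90) and the other 4 did not pass, with 2 higher without rcMSC replicate 1 or rbMSC replicate 3. The 6 markers with a row had a summed level of 10.3 to 12.5 CPM in rcMSC and 6.08 to 9.27 CPM in rbMSC.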
